A study of Mus musculus with 8 samples.

Results

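The angiopoietin, TIE and VEGF genes are 10 mouse genes, Angpt1, Angpt2, Tek, Tie1, Kdr, Flt1, Flt4, Vegfa, Vegfb and Vegfc. They were followed through all 19 probe sets whose single gene symbol in the platform annotation is 1 of these 10, among 18193 genes with such a probe set on the array. The arrays measured total RNA of mouse bone marrow cells separated by flow cytometry: 4 arrays of L-GMPs, the granulocyte-macrophage progenitor (GMP) gate of mice with an acute myeloid leukaemia (AML), and 4 of GMPs from normal marrow. The genotype label of the L-GMPs is HoxA9+Meis1 AML. Both groups carry the replicate letters A to D, and strain, age, gate antigens and the way the leukaemia was made are not given in the sources used here. No label states that the arrays of a group are separate animals. The p-values therefore measure the spread between these samples only, which may be technical. In RNA of sorted cells in bulk, fewer cells of a type and less RNA per cell cannot be told apart.

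Angiopoietins are secreted ligands of the receptor tyrosine kinase TIE2, which Tek encodes. Angpt1 activates TIE2, Angpt2 can oppose or partly activate it depending on context, and TIE1 is a related receptor that binds no known angiopoietin with high affinity and modulates TIE2. VEGF ligands signal through the receptors encoded by Flt1, Kdr and Flt4 and are best known for blood and lymph vessel growth. In marrow, Tek is also known from haematopoietic stem cells, and Angpt1 is made by several stromal and blood-forming cells.

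Values are log2 of the deposited intensities, and a change is the L-GMP mean minus the GMP mean. Adjusted p-values come from limma over all 45037 probe sets that are not controls, with Benjamini-Hochberg adjustment and a threshold of 0.05. L-GMPs had lower signal of Angpt1, Tek, Tie1 and Vegfa. Of the 19 probe sets, 6 (31.6%) fell, 0 rose and 13 did not pass the test. At the same adjusted threshold 10.9% of all probe sets passed, 7.03% lower in L-GMP and 3.89% higher. At an unadjusted limma p under 0.05, 8 of the 19 were lower and 2, both of Vegfc, were higher. The share of all probe sets at that unadjusted threshold was not computed, so these unadjusted counts have no background. The groups did not overlap for 7 of the 19 probe sets (36.8%), in each case with every L-GMP array below every GMP array, against 17.1% of all probe sets in either direction. The median change was -0.18 over the 19 and 0.000224 over all. Of the 3 positive changes, all belonged to Vegfc.

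L-GMP and GMP arrays correlated at 0.967 to 0.974 between groups and at 0.983 to 0.994 within them. The 10th percentile of log2 intensity was 2.84 to 2.92 and the lower quartile 3.65 to 3.75. GMP D stood apart in RNA quality: its 3′ minus 5′ difference of the Gapdh control probe sets was 2.74, against 1.24 to 1.76 on the other 7 arrays. The count of probe sets past the threshold, 4921, was 2972 without GMP B and 3244 without GMP D. Those higher in L-GMP, 1754, were 990 without GMP B, 1073 without GMP C and 1087 without GMP D, and those lower, 3167, were 1982 without GMP B. The genes of the genotype label gave mixed readings, since the Hoxa9 probe set 1421579_at rose by 4.82 and 1455626_at fell by 6.66. Meis1 fell in all 3 of its probe sets, with changes of -1.47, -2.07 and -3.05. Which stretch of each transcript these probe sets read was not analysed here, so these readings do not settle the genotype label, and the groups are named as labelled.

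**Figure D1:**
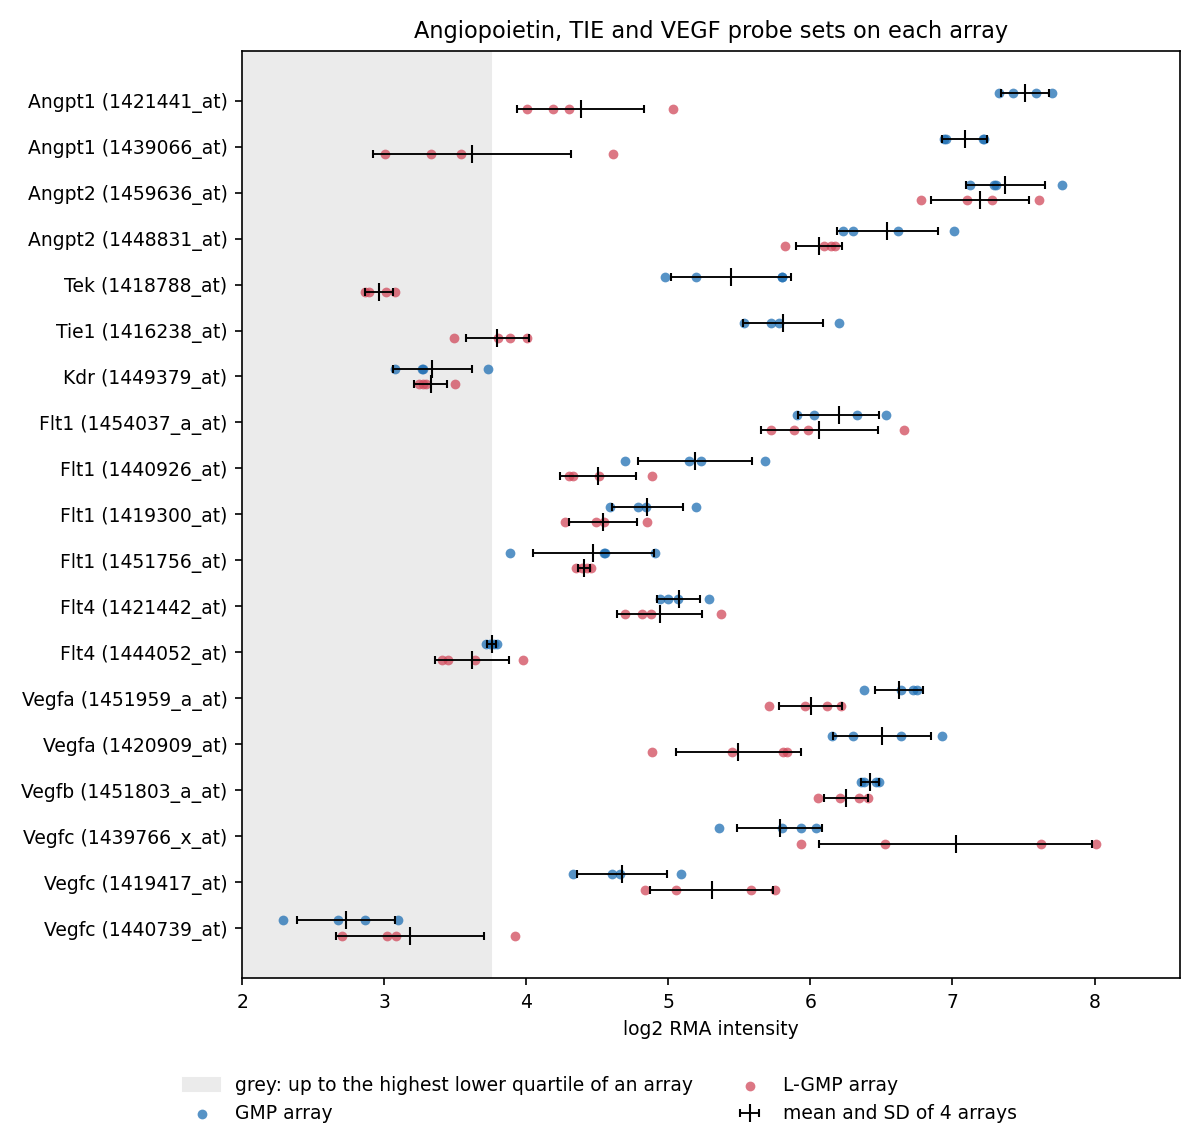
Log2 RMA intensity (x axis) of the 19 probe sets (y axis) on each array, with L-GMP arrays in red, GMP arrays in blue, and the mean and SD of 4 arrays in black; the grey area reaches to 3.75, the highest lower quartile of an array. Angpt1, Tek and Tie1 form separate clouds, Kdr lies in the grey area in both groups, and Vegfc 1439766_x_at spreads from 5.93 to 8.01 within the L-GMPs.

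Promoter sequence is shown for the genes that fell and have an entry among the RefSeq promoters of GRCm38.p6, because their start regions allow a look for letters shared by genes that moved together. Each line gives the 250 bases before the annotated start, 5′ to 3′ on the gene's strand, in lower case. Capitals mark matches, on either strand, to 6 short motifs. The MEIS motif searched was TGACAG. For GATA factors the motif was AGATAA. The motif of ETS factors was AGGAAG. For RUNX factors the letters were TGTGGT. The core of a hypoxia response element was taken as ACGTG. A joint motif of HOX and PBX factors was taken as TGATTNAT, in which N is any base. The motifs do not contain each other, and no matches overlapped.
Tek (chr4:94739039-94739288, strand +): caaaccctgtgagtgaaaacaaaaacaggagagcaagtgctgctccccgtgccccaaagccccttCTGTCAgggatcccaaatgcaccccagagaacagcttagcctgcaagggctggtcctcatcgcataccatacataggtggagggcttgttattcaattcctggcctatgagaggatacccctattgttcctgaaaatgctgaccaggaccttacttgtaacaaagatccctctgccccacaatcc
Tie1 (chr4:118489850-118490099, strand -): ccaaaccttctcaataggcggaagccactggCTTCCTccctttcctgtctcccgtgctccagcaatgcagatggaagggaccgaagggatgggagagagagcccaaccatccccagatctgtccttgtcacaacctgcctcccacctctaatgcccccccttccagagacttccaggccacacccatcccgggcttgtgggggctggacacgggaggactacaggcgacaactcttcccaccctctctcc
Vegfa (chr17:46032378-46032627, strand -): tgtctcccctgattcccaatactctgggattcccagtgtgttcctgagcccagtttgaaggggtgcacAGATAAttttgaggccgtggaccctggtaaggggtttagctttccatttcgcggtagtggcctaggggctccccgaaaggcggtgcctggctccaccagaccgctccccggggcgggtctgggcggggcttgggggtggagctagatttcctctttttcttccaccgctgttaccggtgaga

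Tek held 1 MEIS match, Tie1 held 1 ETS match and Vegfa held 1 GATA match, at 185, 219 and 182 bases before the start. No motif was shared by the 3 windows. A second Vegfa entry (chr17:46025164-46025413, strand -) lies downstream of the first start on the gene's strand, so its window may be part of the transcribed gene. It held 1 match to the hypoxia core at 211 bases before its own start. Whether those letters act in regulation was not tested. Such letters are common: of 32841 mouse promoter windows of the same length, 15.9% held the MEIS letters, 9.99% GATA, 29.5% ETS, 14.0% RUNX, 16.6% the hypoxia core and 2.83% HOX with PBX. Of the members that did not pass the test, Flt1 held 2 ETS matches, and Kdr, Flt4, Vegfb and Vegfc held none of the 6 motifs. A match describes letters only, and a window without one says nothing about the factor. Entries were matched for 8 of the 10 genes, and Angpt1 and Angpt2 were not matched.

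Angpt1, the ligand that activates TIE2, had the largest fall among the 10 genes. Its brighter probe set, 1421441_at, read 4.30, 4.01, 5.03 and 4.19 in L-GMP A to D. The same probe set read 7.59, 7.43, 7.70 and 7.33 in GMP A to D. Every L-GMP array lay more than 2 log2 units below every GMP array, and L-GMP C was the highest of the L-GMPs. The means were 4.38 ± 0.45 and 7.51 ± 0.17 (SD, n = 4 each). The change was -3.13 (SE 0.20, adjusted p = 4.92e-06 by limma), an 8.75-fold lower signal with a 95% interval of 6.42 to 11.9. It ranked 129 among the falls of all probe sets. The dimmer probe set, 1439066_at, fell by 3.47 (SE 0.28, adjusted p = 3.0e-05 by limma). It read 3.0, 3.54, 4.61 and 3.33 in L-GMP A to D and 6.94, 7.22, 6.96 and 7.22 in GMP A to D. The groups were apart again and L-GMP C was again the highest L-GMP array, so the 2 probe sets gave the same order of groups and the same highest L-GMP array. In the L-GMPs 3 of the 4 arrays put this probe set below the lower quartile of its array, where the size of a fold is less sure than its direction.

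Angpt2, the context-dependent ligand, did not pass the test in either probe set. Its brighter one, 1459636_at, read 7.11, 7.28, 6.78 and 7.61 in L-GMP A to D and 7.12, 7.30, 7.77 and 7.29 in GMP A to D. These ranges overlap, and the change of -0.18 had a 95% interval of -0.60 to 0.24 (adjusted p = 0.607, limma). The dimmer probe set, 1448831_at, read 6.15, 6.17, 5.82 and 6.10 against 7.01, 6.23, 6.62 and 6.30. All L-GMP arrays lay below all GMP arrays, but the nearest values were 0.06 apart. The change was -0.48 (SE 0.17, 95% interval -0.86 to -0.10, adjusted p = 0.107 by limma).

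Whether the 2 ligands changed by unequal amounts was asked through the difference of their log2 values within each array, by the brighter probe set of each. The difference on 1 array mixes level with probe affinity, so only its change between the groups can be read. Angpt1 minus Angpt2 was -2.80, -3.27, -1.75 and -3.42 in L-GMP A to D, and 0.47, 0.12, -0.07 and 0.03 in GMP A to D. The groups did not overlap, and the L-GMP minus GMP difference was -2.95. The exact 2-sided permutation test gave p = 0.0286, the smallest that 4 against 4 arrays allow, and 0.114 after Benjamini-Hochberg adjustment over the 4 pairs of genes compared. The adjustment over 4 pairs can therefore not bring 1 such pair alone past 0.05.

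Tek encodes TIE2, the receptor of both angiopoietins, and has 1 probe set, 1418788_at. It read 3.08, 3.01, 2.89 and 2.87 in L-GMP A to D. In GMP A to D it read 5.19, 5.80, 4.97 and 5.80. The groups lay apart by 1.89 between their nearest arrays, and the L-GMP arrays agreed closely with each other. The means were 2.96 ± 0.10 and 5.44 ± 0.42 (SD, n = 4 each), a change of -2.48 (SE 0.19, adjusted p = 1.61e-05 by limma). This is a 5.58-fold lower signal (95% interval 4.19 to 7.43). The L-GMP values sit near the 10th percentile of their arrays, so the fold may understate the fall.

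Tie1, the receptor that modulates TIE2, also has 1 probe set, 1416238_at. It read 4.01, 3.80, 3.89 and 3.49 in L-GMP A to D and 5.72, 5.53, 6.20 and 5.78 in GMP A to D. The nearest arrays of the 2 groups were 1.52 apart, and the L-GMP D value lay below the lower quartile of its array. The means were 3.79 ± 0.22 and 5.81 ± 0.28 (SD, n = 4 each), a change of -2.01 (SE 0.16, adjusted p = 2.62e-05 by limma) or a 4.04-fold lower signal (95% interval 3.15 to 5.18). Within each array, Tek minus Tie1 was -0.83 ± 0.16 in L-GMPs and -0.37 ± 0.66 in GMPs (SD, n = 4 each). That difference of -0.47 did not pass the exact permutation test (p = 0.257, adjusted p = 0.343), and GMP A to D alone ranged from -1.23 to 0.27. A p above the threshold does not show that the 2 receptors fell by the same amount, and Tek in L-GMPs was near the low end of the signal.

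The calls of Angpt1, Tek and Tie1 held in each alternative in which their probe sets were tested, leaving out any 1 array included. Under these the change ran from -3.35 to -2.99 for Angpt1 1421441_at, from -2.64 to -2.34 for Tek and from -2.11 to -1.87 for Tie1.

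**Figure D2:**
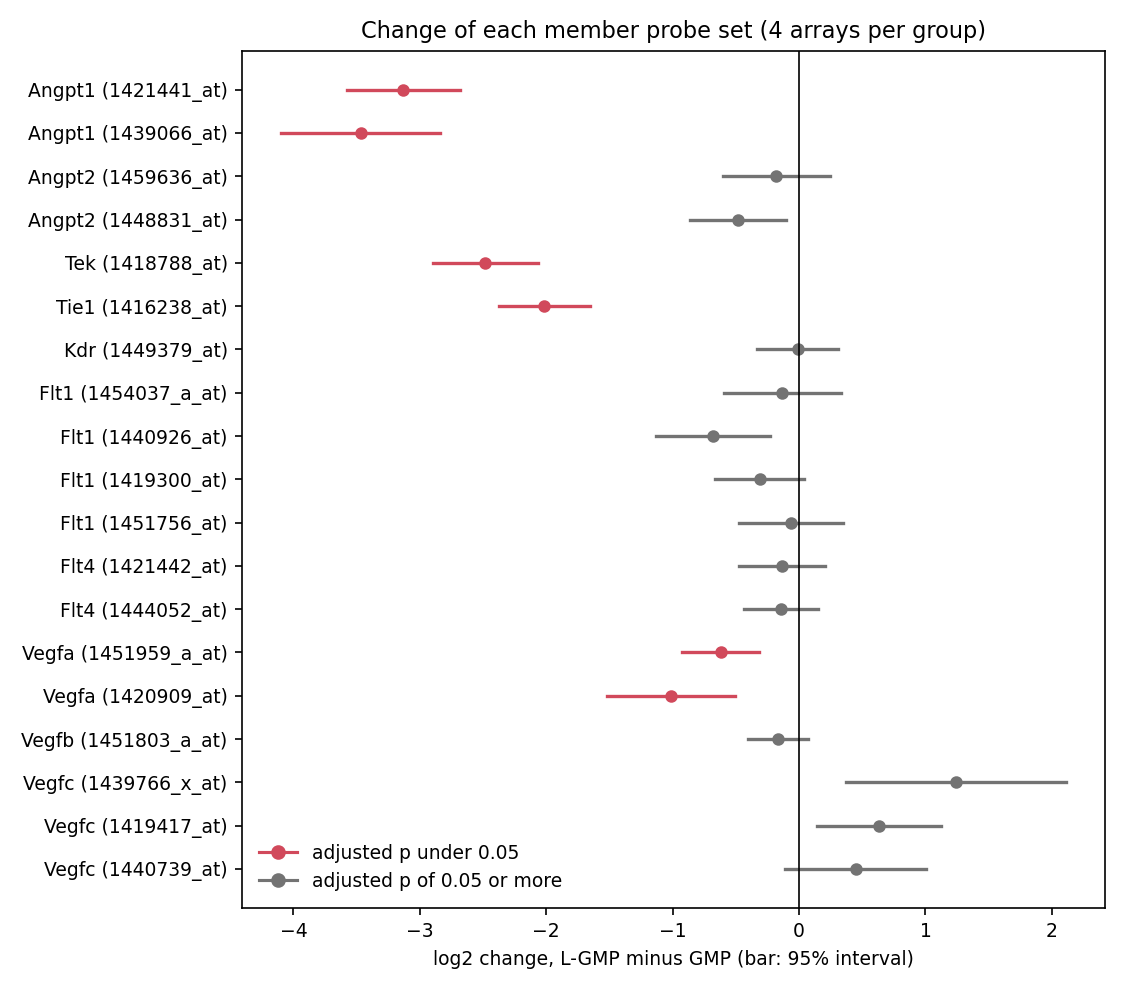
Log2 change, L-GMP minus GMP, of each probe set (points) with its 95% interval (bars), in red where the adjusted p is under 0.05 and in grey otherwise. Angpt1, Tek and Tie1 lie at -2.01 or lower, the 2 Vegfa probe sets at -0.62 and -1.01, and the 3 Vegfc probe sets are the only ones to the right of 0.

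The receptors of the VEGF ligands did not pass the test. Kdr, which encodes VEGFR2, the main signalling receptor of VEGF-A in endothelium, read 3.24, 3.50, 3.29 and 3.28 in L-GMP A to D and 3.27, 3.27, 3.08 and 3.73 in GMP A to D (1449379_at). Every value was below the lower quartile of its array, so Kdr was at the low end of the signal range in both groups and a difference could hardly be seen. The change was -0.01 (95% interval -0.33 to 0.31, adjusted p = 0.974 by limma). Flt4, which encodes VEGFR3, the receptor of VEGF-C, changed by -0.13 (95% interval -0.47 to 0.21) in 1421442_at and by -0.14 (-0.43 to 0.15) in 1444052_at, with overlapping groups in both. On L-GMP A, B and C, 1444052_at lay below the lower quartile of its array.

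Flt1 encodes VEGFR1, a high-affinity receptor that also exists as a soluble decoy, and its 4 probe sets differed among themselves. The brightest, 1454037_a_at, read 5.89, 6.66, 5.73 and 5.98 in L-GMP A to D and 6.53, 5.90, 6.03 and 6.33 in GMP A to D, a change of -0.13 (95% interval -0.60 to 0.33). Probe set 1440926_at read 4.88, 4.51, 4.33 and 4.30 against 4.69, 5.68, 5.23 and 5.15. In that probe set L-GMP A lay above GMP A and the other GMP arrays lay above every L-GMP array. Its change of -0.68 (SE 0.20) had an adjusted p of 0.0585 by limma, which became 0.0427 without L-GMP A and 0.0172 without GMP A. The remaining 2 probe sets changed by -0.31 (1419300_at, adjusted p = 0.250) and -0.06 (1451756_at, adjusted p = 0.870). Which transcript forms the 4 probe sets read was not analysed here. Flt1 minus Kdr, another of the 4 pairs, differed by -0.12 between the groups (exact permutation p = 0.657, adjusted p = 0.657). With Kdr at the low end of the signal range this difference says nothing on whether the 2 receptors changed alike.

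Vegfa, the main VEGF ligand and a target of hypoxia-inducible factors, fell in both probe sets, by less than Angpt1, Tek and Tie1. The brighter one, 1451959_a_at, read 5.96, 6.22, 5.71 and 6.12 in L-GMP A to D and 6.75, 6.38, 6.73 and 6.64 in GMP A to D. The other, 1420909_at, read 5.84, 5.81, 4.89 and 5.45 against 6.15, 6.64, 6.30 and 6.92. L-GMP C was the lowest array in both, and the groups did not overlap in either, with nearest arrays 0.16 and 0.32 apart. The changes were -0.62 (SE 0.14, adjusted p = 0.0165 by limma) and -1.01 (SE 0.23, adjusted p = 0.0187 by limma), or 1.54-fold (95% interval 1.25 to 1.90) and 2.02-fold (1.42 to 2.87) lower signal. Single arrays decided these calls in part: the first had an adjusted p of 0.0523 without GMP C, and the second 0.0609 without GMP B and 0.0574 without GMP D. With any 1 array left out at least 1 Vegfa probe set still passed.

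Vegfb, a ligand of VEGFR1, read 6.05, 6.34, 6.41 and 6.21 in L-GMP A to D and 6.46, 6.48, 6.38 and 6.36 in GMP A to D (1451803_a_at). The groups overlapped through L-GMP C, and the change was -0.17 (95% interval -0.41 to 0.07, adjusted p = 0.377 by limma). Vegfa minus Vegfb within each array differed by -0.45 between the groups, with an exact permutation p of 0.0857 and an adjusted p of 0.171. Unequal change of the 2 ligands was thus not shown.

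Vegfc, the ligand of VEGFR3 known for lymph vessel growth, pointed the other way but did not pass the test. Its brightest probe set, 1439766_x_at, read 6.52, 8.01, 7.63 and 5.93 in L-GMP A to D and 5.36, 6.04, 5.80 and 5.93 in GMP A to D. L-GMP B and L-GMP C stood more than 1 log2 unit above every GMP array, whereas L-GMP D was within the GMP range. The change was 1.24 (SE 0.39, 95% interval 0.37 to 2.11, adjusted p = 0.0714 by limma). The adjusted p was 0.0129 without L-GMP D, 0.0362 with each array centred on its median and 0.0449 after quantile normalization. Probe set 1419417_at read 4.83, 5.58, 5.75 and 5.05 against 4.33, 4.61, 5.09 and 4.66, again with L-GMP B and L-GMP C highest. Its change was 0.63 (SE 0.22, adjusted p = 0.0992 by limma, and 0.0385 with each array centred on its median). The dimmest, 1440739_at, changed by 0.45 (adjusted p = 0.300) with 7 of 8 values below the lower quartile of their array. Centring moved the median change of all probe sets from 0.000224 to 0.14, and the brighter 2 Vegfc changes with it, to 1.38 and 0.77.

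**Figure D3:**
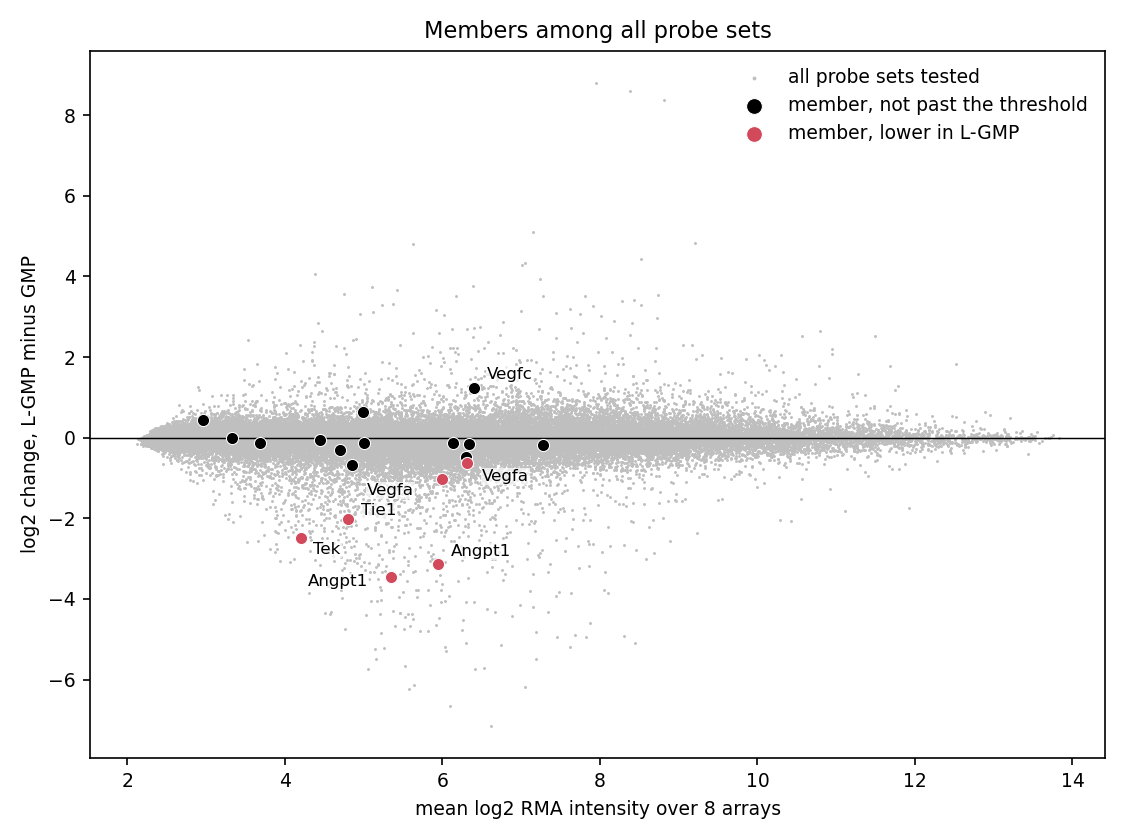
Log2 change, L-GMP minus GMP (y axis), against the mean log2 RMA intensity over 8 arrays (x axis) for all 45037 probe sets (grey), with the members in red where they were lower past the threshold and in black otherwise. The Angpt1, Tek and Tie1 points lie far below the band of most probe sets, the 2 Vegfa points lie at its lower edge, and most other members lie within it.

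Genes that work with the members were described by the brightest probe set of each gene. By that rule 6.87% of all 18193 genes fell and 4.33% rose at the adjusted threshold, with a median change of 0.01. No such share was computed at an unadjusted p under 0.05, so the unadjusted counts of the lists have no background. Of 10 other ligands and co-receptors measured, 1 fell and 0 rose by limma (2 lower and 1 higher at an unadjusted p under 0.05), with a median change of 0.05. It was Nrp2, a neuropilin that binds VEGF-C, at -1.18 (SE 0.32, adjusted p = 0.0407 by limma). That call was lost without L-GMP C, L-GMP D, GMP B, GMP C or GMP D (adjusted p 0.0505 to 0.114), and without GMP A the list had 2 falls. The Nrp2 call was also lost with the mean of its probe sets, at -0.52 (adjusted p = 0.125 by limma). After quantile normalization its adjusted p was 0.0674, and with the replicate letter as a block 0.0582. Pgf, a ligand of VEGFR1, changed by 0.09, Nrp1 by -0.10, Angpt4 by -0.02 and Ptprb, the phosphatase that acts on TIE2, by 0.21, all without passing the test. Of 4 angiopoietin-like genes 0 passed by limma in their brightest probe set, and 1 had an unadjusted p under 0.05. Angptl1 was at -0.36 (adjusted p = 0.0866) by that rule, but 2 dimmer probe sets of it fell, with changes of -1.22 and -0.51.

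Of 31 measured genes that carry TIE and VEGF receptor signals inside the cell, 4 fell and 0 rose by limma (7 lower and 1 higher at an unadjusted p under 0.05), with a median change of -0.01. Fyn, a SRC-family kinase, fell by 1.82 (SE 0.14), from 6.96 ± 0.20 in GMPs to 5.15 ± 0.23 in L-GMPs (SD, n = 4 each). Prkca, a protein kinase C, fell by 1.80 (SE 0.19). Grb14, an adaptor, fell by 0.94, and Nck1, another adaptor, fell by 0.47. The Fyn, Prkca and Grb14 calls held with any 1 array left out, and that of Nck1 was lost without any 1 array other than L-GMP B (adjusted p 0.0523 to 0.124). Centring each array on its median also lost the Nck1 call (adjusted p = 0.136 by limma). The Grb14 call was lost with the mean of its probe sets, at -0.27 (adjusted p = 0.155 by limma). Every L-GMP value of its brightest probe set lay below the lower quartile of its array. A further probe set of Prkcb fell by 0.79, 1 of Foxo1 fell by 0.35 and 1 of Pik3r1 rose by 0.35, while the brightest probe set of these 3 genes did not pass. The share of 4 in 31 stands beside 6.87% of all genes, and the other 27 members did not pass.

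Because Vegfa is a hypoxia target, the oxygen-sensing genes are given beside it. Of 9 sensors, 1 rose and 1 fell by limma (3 higher and 1 lower at an unadjusted p under 0.05), with a median change of 0.11. Egln1, a prolyl hydroxylase that marks HIF proteins for degradation, rose by 0.56 (SE 0.12, adjusted p = 0.0155 by limma, and 0.0501 without L-GMP B and GMP D together). Hif1an, the hydroxylase that limits HIF activity, fell by 0.48 (SE 0.11, adjusted p = 0.0190 by limma), a call lost without L-GMP A, GMP B or GMP D (adjusted p 0.0537 to 0.0586). With the mean of its probe sets Hif1an was at -0.18 and did not pass (adjusted p = 0.23 by limma). With each array centred on its median 3 sensors rose and 0 fell, and without L-GMP C or GMP A 2 rose. Hif1a was at -0.12 in its brightest probe set, which did not pass, and fell by 0.54 in 1416035_at. Of 11 hypoxia-induced genes 1 rose and 0 fell by limma (2 higher and 1 lower at an unadjusted p under 0.05), with a median change of 0.21. It was Slc2a1, the glucose transporter GLUT1, which rose by 0.86 (SE 0.15, adjusted p = 0.00564 by limma), opposite in direction to Vegfa. A further gene of that list rose without L-GMP A, L-GMP B or GMP A, and 1 fell without L-GMP B. Pdk1 was at 0.23 in its brightest probe set without passing, and another of its probe sets fell by 0.74.

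**Figure D4:**
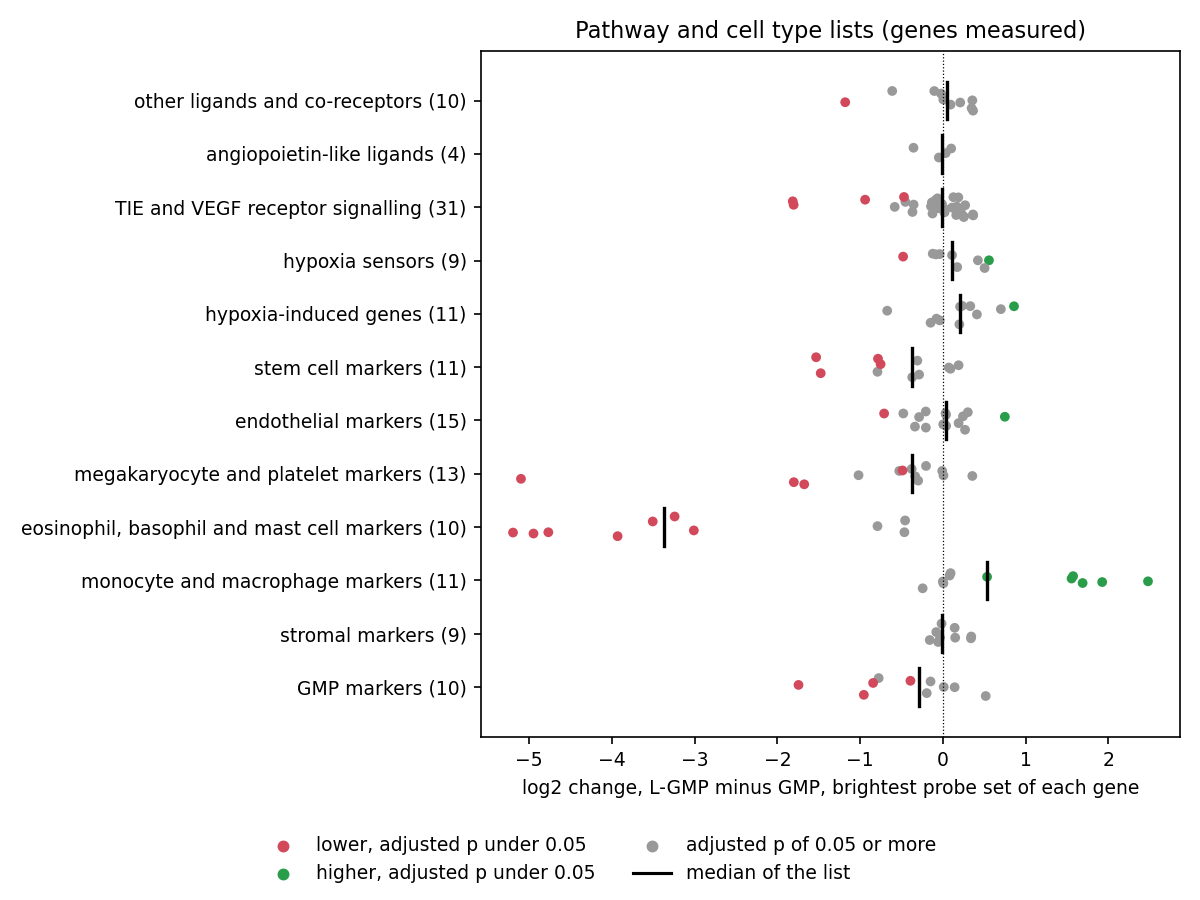
Log2 change, L-GMP minus GMP (x axis), of the brightest probe set of each gene (points) in 12 pathway and cell type lists (y axis, with the number of genes measured), in red where lower past the threshold, green where higher and grey otherwise; black lines mark list medians. The pathway lists centre between -0.01 and 0.21, the eosinophil, basophil and mast cell list at -3.38 and the monocyte and macrophage list at 0.53.

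Tek, Tie1 and Angpt1 are expressed in stem cells, endothelium, megakaryocytes or other cells that a sorted fraction could hold, so markers of these types are given beside their falls. Of 15 endothelial markers, 1 rose and 1 fell, with 1 higher and 3 lower at an unadjusted limma p under 0.05. Their summed linear intensity was 759 to 915 in L-GMPs and 644 to 808 in GMPs. Without Pecam1, a bright gene also present on many leukocytes, the other 14 summed to 397 to 455 in L-GMPs and 404 to 536 in GMPs, a sum chosen after the values were seen, and the groups overlapped. Cdh5, the defining endothelial cadherin, lay below the lower quartile in both groups, at a mean of 3.53 in each, and Clec14a, Sox17 and Robo4 were below it too. Cldn5 was at 4.0 and 3.97. Pecam1 rose by 0.75 (SE 0.12), and Emcn fell by 0.71 (SE 0.16), a call lost without L-GMP A, GMP B, GMP C or GMP D (adjusted p 0.0524 to 0.0648), while 2 fell without L-GMP B. Every L-GMP value of Emcn lay below the lower quartile of its array. Dimmer probe sets of Egfl7 and Eng fell, with changes of -0.68 and -0.75.

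Of 11 stem cell markers 4 fell and 0 rose by limma (7 lower and 0 higher at an unadjusted p under 0.05), with a median change of -0.37 and a summed intensity of 437 to 605 in L-GMPs against 764 to 1092 in GMPs. Gata2, the brightest gene of this list, weighs most in that sum and is also on the eosinophil, basophil and mast cell list. It changed by -0.79 with overlapping groups and did not pass (adjusted p = 0.0944 by limma). Procr, the stem cell receptor EPCR, fell by 1.53 (SE 0.17), Mllt3 fell by 1.48 (SE 0.30), Mecom fell by 0.78 (SE 0.12) and Hlf fell by 0.75 (SE 0.21). The Hlf call was lost without L-GMP A, L-GMP C or any 1 GMP array (adjusted p 0.0625 to 0.113). It was also lost with each array centred on its median (adjusted p = 0.0795 by limma) and after quantile normalization (0.104). With the replicate letter as a block it was lost too (0.075). Every L-GMP value of Mecom lay below the lower quartile of its array, where the size of a fall is less sure than its direction. Fgd5 and Robo4 lay below the lower quartile in both groups, and Slamf1 was at 3.85 and 3.76. Of 13 megakaryocyte and platelet markers 4 fell and 0 rose (8 lower and 0 higher at an unadjusted p under 0.05), with a median change of -0.38 and a summed intensity of 1394 to 1953 against 1720 to 3760. These 2 ranges overlap. Nfe2 and Itgb3, the brightest genes of this list, weigh most in the L-GMP sums. They changed by -0.30 and 0.36 and did not pass. Pf4 fell by 5.10 (SE 0.57), Vwf fell by 1.80 (SE 0.38), Itga2b fell by 1.68 (SE 0.19) and Gp5 fell by 0.49 (SE 0.13). The Gp5 call was lost without any 1 array other than L-GMP B (adjusted p 0.0521 to 0.0947). It was also lost with each array centred on its median (adjusted p = 0.114 by limma). Gp9 changed by 0.01, and Gp6 and Tubb1 lay below the lower quartile in both groups.

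Of 10 eosinophil, basophil and mast cell markers 7 fell and 0 rose by limma (9 lower and 0 higher at an unadjusted p under 0.05), with a median change of -3.38 and a summed intensity of 684 to 1558 in L-GMPs against 4510 to 11054 in GMPs. Prg2 fell by 5.20, Ms4a2 fell by 4.95, Epx fell by 4.77 and Prg3 fell by 3.93. The call of Cpa3 was lost without any 1 array other than L-GMP B (adjusted p 0.0649 to 0.117). Of 11 monocyte and macrophage markers 6 rose and 0 fell (also 6 and 0 at an unadjusted p under 0.05), with a summed intensity of 8784 to 12611 against 4468 to 5066. Cd68 rose by 2.48, Mpeg1 by 1.93, Ctss by 1.69 and F13a1 by 1.57. The Ccr2 call was lost without L-GMP A, L-GMP C, L-GMP D, GMP A, GMP C or GMP D (adjusted p 0.060 to 0.0862), and that of Adgre1 without L-GMP A, L-GMP C or any 1 GMP array (0.0706 to 0.107). The list therefore had 4 rises without L-GMP A, L-GMP C, GMP A, GMP C or GMP D. Ccr2 changed by 0.53 in its brightest probe set. With the mean of its probe sets it was at 0.09 and did not pass (adjusted p = 0.817 by limma). Of 9 stromal markers 0 passed by limma and 1 was higher at an unadjusted p under 0.05, with a summed intensity of 303 to 444 against 278 to 426. The stromal marker with the unadjusted p under 0.05 was Dcn, at 0.339 (adjusted p = 0.119 by limma). The largest stromal change was that of Pdgfrb, 0.343 (adjusted p = 0.353 by limma), with overlapping groups. Of 10 GMP markers, summed at 28217 to 32746 in L-GMPs and 40959 to 44930 in GMPs, 4 fell and 0 rose by limma. At an unadjusted p under 0.05, 5 were lower and 1 was higher. The changes of those that fell by limma were -1.75 for Elane, -0.96 for Kit, -0.84 for Prtn3 and -0.39 for Mpo. The Prtn3 call was lost without GMP D (adjusted p = 0.0504) and that of Mpo without L-GMP A, L-GMP C, L-GMP D, GMP B, GMP C or GMP D (0.0511 to 0.0726), so the list had 2 falls without GMP D. It had 1 rise without L-GMP B. With each array centred on its median the Mpo call was lost too (adjusted p = 0.12 by limma). The part of any of these cell types in the falls of Angpt1, Tek, Tie1 and Vegfa was not tested.

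For the 3 genes with the lowest adjusted p, the genes of most similar pattern were sought by the mean absolute difference over the 8 arrays of log2 values centred on each probe set's own mean, among 32559 probe sets. Any gene with a fall of like size and small spread lies near by this measure. Nearest to Angpt1 were Ikzf2 at 0.245, Ak4 at 0.251 and Dach1 at 0.275, with changes of -3.41, -3.17 and -3.29. Nearest to Tek were Galnt3 at 0.118, Rnf180 at 0.140 and Ttc8 at 0.141, with changes of -2.36, -2.57 and -2.46. Nearest to Tie1 was a probe set of Meis1, 1450992_a_at, at 0.130, followed by Sdc2 at 0.132 and Ppp1r26 at 0.140. That Meis1 probe set read 3.32 ± 0.14 in L-GMPs and 5.39 ± 0.12 in GMPs (SD, n = 4 each), and it names a gene of the genotype label although its signal was lower in the leukaemic group.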

How the data were processed

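Total RNA of 8 sorted samples was hybridised to Affymetrix mouse arrays. Per the submitters' processing notes, the authors made the deposited intensity values with RMA. They are linear, and 0 columns were left unused. The labelling named is for sense whole transcript targets, whereas the probe sets belong to a 3′ array, so the stretch and strand read are not settled. Log2 was taken. Of 45101 probe sets, 64 controls were left out. RMA gives no detection call, and depth does not apply to arrays, whose number limits the precision. Groups follow the sample titles. limma 3.58.1 (R 4.3.3; lmFit and eBayes, group only, 2-sided) tested all probe sets, and the exact permutation test compared 4 gene pairs. The script was tested on simulated data. Of 156 list entries, 144 were measured. Members and lists were chosen with earlier results of these data known. Named were all member probe sets, up to 4 genes per list with the largest change among those passing in any probe set, and the 3 nearest genes of 3 members. Outside that rule, Adgre1, Angpt4, Ccr2, Cdh5, Cldn5, Clec14a, Cpa3, Dcn, Fgd5, Foxo1, Gata2 and Gp6 were added after their values were seen. So were Gp9, Itgb3, Nck1, Nfe2, Nrp1, Pgf, Pik3r1, Ptprb, Robo4, Slamf1, Sox17 and Tubb1. Promoters are RefSeq, GRCm38.p6.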

Additional observations from a re-analysis of the deposited data

How the results depend on the processing

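Over 11 alternatives of each pair test, the lowest adjusted permutation p was 0.0571, and for Flt1 minus Kdr 0.152. The pair tests had little room to pass at this number of arrays and say nothing about stability. The Flt1 minus Kdr difference changed sign in 2 of its alternatives. Member genes with a probe set lower in L-GMP, 4, numbered 2 without the dimmest 50% of probe sets, which removes Tek and Tie1 from the test, and otherwise 3 (limma's treat at a fold of 1.5) to 5, with 4 to 5 when an array was left out. Member genes higher, 0, numbered 1 (Vegfc) with each array centred on its median, after quantile normalization and with the replicate block, and 0 to 1 when an array was left out. Probe sets past the threshold, 4921, numbered 2193 with the brightest and 2569 with the mean of the probe sets of each gene (fewer tested), 741 with treat, and 2972 to 5334 with an array left out. Those higher, 1754, numbered 4301 with each array centred on its median, 870 and 940 per gene, 167 with treat and 990 to 1851 with an array left out. Those lower, 3167, numbered 1323, 1629, 574 and 1982 to 3483. Centring put 65.9% of passing probe sets on the higher side and quantile normalization 46.8%, against 35.6%. No strong effect shared by arrays of the same letter was seen. Deviations of same-letter arrays correlated at -0.04, -0.00127, -0.07 and 0.10, and 1 of 4 L-GMP arrays matched its own letter best. With 4 arrays per group this cannot exclude pairing, and no label says what the letters mean. With the letter as a replicate block 4077 probe sets passed; Vegfa 1451959_a_at was lost (adjusted p = 0.0504), Vegfc passed in 1439766_x_at (0.0437) and 1419417_at (0.0269), and the pair tests have no block. Without L-GMP B and GMP D together, chosen after seeing the data, 3367 passed, 1168 of them higher, and the member counts were 4 and 0. With array weights Flt1 1440926_at passed (0.0273). Of 456 list counts under the alternatives, 386 stayed within 1.5 times, but only 8 of the 24 counts did so under every alternative; centring moved most hypoxia counts. The causes of these shifts, other than fewer probe sets tested, were not tested. Low signal limits Kdr, Tek in L-GMPs and Vegfc 1440739_at. It also limits Angpt1 1439066_at and Flt4 1444052_at on most L-GMP arrays, and Tie1 on L-GMP D.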
